A study of Mus musculus with 4 samples.

Results

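The 40 genes described here encode antioxidant enzymes and the NRF2 pathway that controls many of them, and all 40 were found among the 11492 genes of the deposited RNA-Seq table. They are 3 regulators, 7 enzymes placed in mitochondria, 22 placed in the cytosol, 7 of the endoplasmic reticulum (ER) and other membranes, and the peroxisomal enzyme catalase. The RNA-Seq libraries, 1 for each of 4 groups, were made from HT-22 cells, which are immortalized mouse cells of hippocampal neuronal origin. The Ctrl group carries the label wild type and, by the study's methods, received negative control lentivirus. The PGC-1α group overexpressed PGC-1α from a lentivirus, and both kinds of cells were selected with puromycin. The Ctrl+OGD and PGC-1α+OGD groups were the same cells after oxygen and glucose deprivation (OGD) for 2 h and a return to normal medium for 24 h. By the study's methods the medium during OGD also lacked serum. Loss and return of serum therefore cannot be told apart from the rest of the OGD treatment. Since a group is 1 library, the spread between replicates is unknown, the differences below were not tested, and p values are not given.

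NRF2 (Nfe2l2) is a transcription factor that the adaptor protein KEAP1 hands over to degradation in unstressed cells. Oxidants modify KEAP1, NRF2 then accumulates, and it binds antioxidant response elements (AREs) in front of genes for glutathione synthesis, thioredoxin reduction, quinone reduction and heme breakdown. Superoxide dismutases turn superoxide into hydrogen peroxide, which catalase, glutathione peroxidases and peroxiredoxins remove. Thioredoxins, glutaredoxins and their reductases then restore the oxidized enzymes, with separate sets in mitochondria and in the cytosol. PGC-1α is a transcriptional coactivator known to raise mitochondrial antioxidants, and the comparison of mitochondrial with cytosolic enzymes addresses whether its overexpression did so in these cells, with and without OGD.

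Levels are in FPKM (fragments per length of transcript and per depth of library) and were summed over the deposited transcripts of each gene. Series of 4 values follow the order Ctrl and PGC-1α, then Ctrl+OGD and PGC-1α+OGD. Differences are log2 fold changes, taken as differences of log2(FPKM + 1), and a gene was called higher or lower at a fold of at least 1.5, the study's own fold criterion. Of all genes, 10598 reached 1 FPKM as the mean of the libraries and were compared. The table totals ranged from 331892 to 353381 FPKM, the number of reads is unknown, and fewer cells expressing a gene cannot be told apart from less RNA per cell. Ppargc1a, which encodes PGC-1α, was at 0.900, 35.1, 0.103 and 8.41 FPKM. It was higher in both PGC-1α libraries than in either control library, and in PGC-1α+OGD it was lower than in PGC-1α. Of 15 neuronal marker genes, 4 had values, up to 7.31 FPKM for Camk2a in Ctrl, and Rbfox3, Map2 and Tubb3 had no entry in the table. The 5 mesenchymal marker genes Vim, Col1a2, Col1a1, Fn1 and Col3a1 had 398, 248, 175, 136 and 3.17 FPKM in Ctrl.

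The members were mostly abundant genes. Their mean level had a median of 36.6 FPKM, against 12.6 FPKM for all genes compared, and 33 of the 40 lay above that second value. Sod1, the cytosolic copper and zinc superoxide dismutase, had the highest mean (440 FPKM), followed by Gstm1, a glutathione S-transferase (348 FPKM). Gclm, the modifier subunit of glutamate-cysteine ligase, had the lowest (6.59 FPKM). Summed over the 40 genes, the levels were 2472, 2418, 2741 and 2436 FPKM, which is 0.745%, 0.715%, 0.776% and 0.701% of each table total. The sum was therefore highest in Ctrl+OGD.

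**Figure D1:**
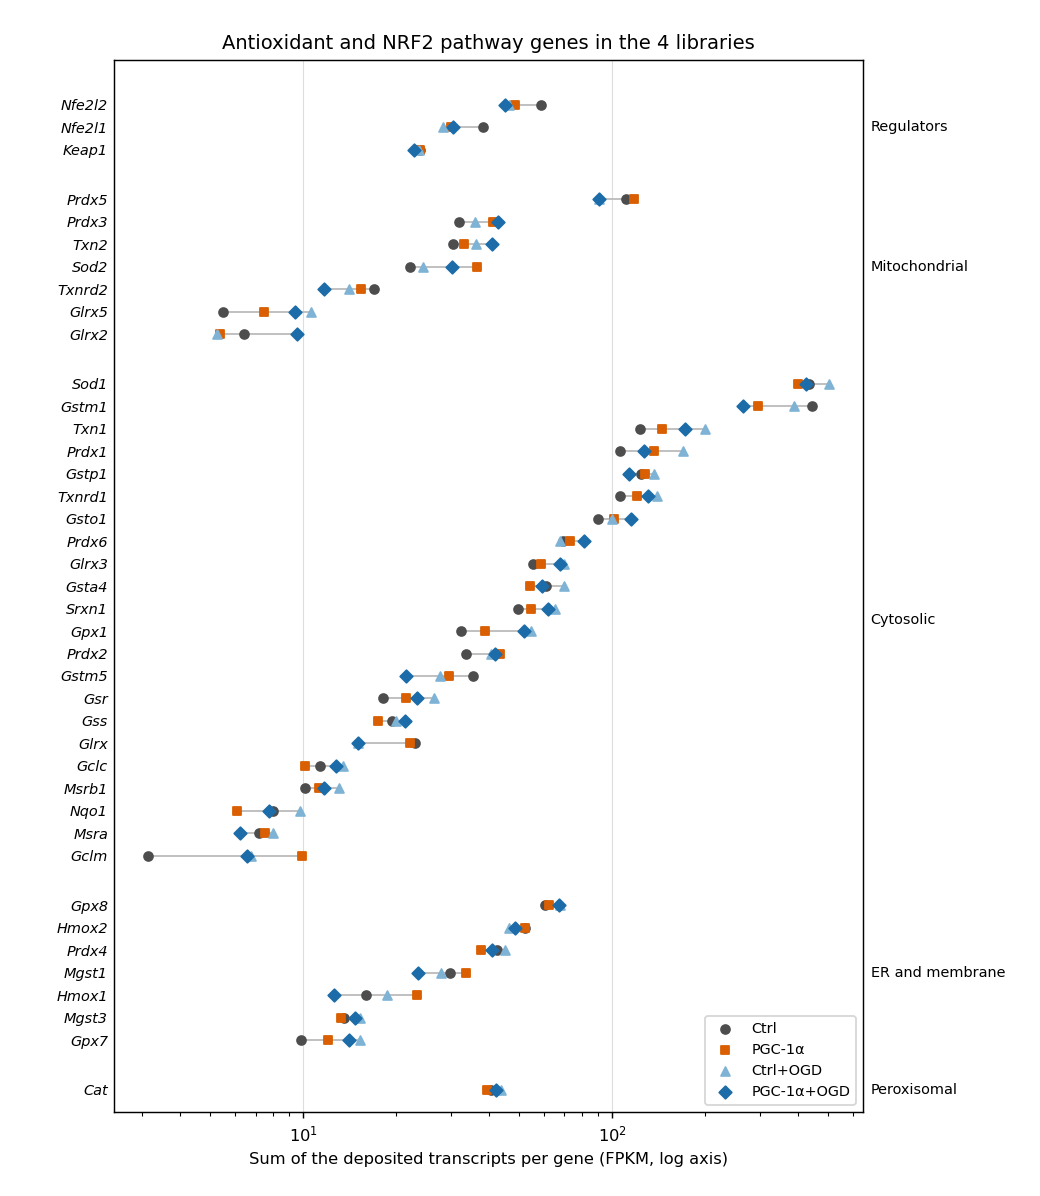
Each row is 1 gene, each symbol 1 library, and the horizontal log axis gives the sum of the deposited transcripts in FPKM; grey lines join the lowest and highest library. Most rows are short, while Gclm spreads from 3.15 FPKM in Ctrl to 9.88 FPKM in PGC-1α.

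Since the NRF2 pathway acts through AREs, promoter sequence of the members was searched for the ARE core TGACNNNGC on either strand, in RefSeq windows from 250 bases before to 50 after each gene start. Windows were found for 34 members (48 windows in all), and not for Prdx6, Gclc, Gsr, Hmox1, Gsta4 and Msra. The core was present in 8 of the 48 windows (16.7%), against 12.4% of all 32851 windows, in Gclm, Gstm5, Mgst1, Nfe2l2, Prdx1, Sod1, Srxn1 and Txnrd1. The stretches around the match are shown for 3 enzymes often used as NRF2 targets, 2 of them with calls described below, all on the plus strand of GRCm38.p6, 5′ to 3′, with the core in capitals. In all 3 the core lies on the opposite strand to the gene and so reads GCNNNGTCA here. The Txnrd1 stretch belongs to 1 of its 3 RefSeq starts.
Gclm, chr3:122245398-122245456: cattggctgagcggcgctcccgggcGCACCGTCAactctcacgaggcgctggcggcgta
Prdx1, chr4:116685441-116685499: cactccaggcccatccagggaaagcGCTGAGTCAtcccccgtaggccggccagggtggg
Txnrd1, chr10:82859089-82859147: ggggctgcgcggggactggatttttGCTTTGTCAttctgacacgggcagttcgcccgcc
The match begins 134 bases before the RefSeq start of Gclm, 133 before that of Prdx1 and 92 before that of Txnrd1. A binding motif of NRF1, a partner of PGC-1α in mitochondrial gene control, searched as its GC-rich palindrome, was found in 2 of the 48 windows (Gss and Gstm5, 4.17%, against 4.60% of all windows), and in Gstm5 it did not overlap the ARE core. The motif of the estrogen-related receptors, TCAAGGTCA, was found in 0 of the 48 windows and in 0.423% of all windows. No mitochondrial member was among those with any of these matches.

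In PGC-1α vs Ctrl, 2 of the 40 members were at least 1.5-fold higher and 0 were lower, which is 5.00% of the members, against 10.5% of all genes compared (4.92% higher and 5.63% lower). The higher genes were Sod2, the mitochondrial manganese superoxide dismutase, and Gclm. Over the 40 members the median log2 fold change was 0.06, against -0.03 over all genes, and 24 members were above 0. In PGC-1α+OGD vs Ctrl+OGD, 1 member was higher and 0 were lower, which is 2.50% of the members, against 6.91% of all genes (3.09% higher and 3.82% lower). This gene was Glrx2, a glutaredoxin with a mitochondrial form, and the median of the members was -0.07, with 11 above 0 and 29 below. Members at 1.5-fold or more were thus no more frequent than genes in general with either pair of libraries.

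Sod2 (ENSMUSG00000006818, chr17:13006846-13040063, plus strand of GRCm38) was at 22.2 FPKM in Ctrl and 36.5 in PGC-1α, and after OGD it was at 24.4 and 30.2 FPKM in the same cells. Both PGC-1α libraries were above both control libraries. The log2 fold change was 0.69 without OGD and 0.30 with OGD, and only the former was past 1.5-fold. Prdx3, the peroxiredoxin of the mitochondrial matrix, was at 32.0, 41.1, 36.0 and 42.7 FPKM in the same order. Both PGC-1α libraries were again above both control libraries, with log2 fold changes of 0.35 and 0.24 that stayed under the 1.5-fold limit. Txn2, the mitochondrial thioredoxin that reduces Prdx3, was at 30.6, 33.1, 36.3 and 40.9 FPKM, and its log2 fold changes with PGC-1α were 0.11 and 0.17. Its partner reductase Txnrd2 was at 16.9, 15.4, 14.1 and 11.7 FPKM, with log2 fold changes of -0.13 and -0.25. The thioredoxin and its reductase thus had values of opposite sign.

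The other mitochondrial members also varied in sign. Prdx5, a peroxiredoxin of mitochondria, peroxisomes and the cytosol, was at 111, 118, 90.7 and 90.9 FPKM, below both other libraries in the OGD libraries, with log2 fold changes of 0.10 and 0.00 with PGC-1α. In Ctrl+OGD vs Ctrl the log2 fold change of Prdx5 was -0.28 with sums. It was 0.40 with its most abundant transcript and -0.07 with sums weighted by length. Glrx5 (ENSMUSG00000021102, chr12:105032688-105042906, plus strand), which passes on iron-sulfur clusters, was at 5.49, 7.43, 10.6 and 9.39 FPKM. Its log2 fold change with PGC-1α was 0.38 without OGD and -0.16 with OGD. Glrx2 (ENSMUSG00000018196, chr1:143716338-143749676, plus strand) was at 6.41, 5.36, 5.26 and 9.53 FPKM, so that PGC-1α+OGD stood above the other 3 libraries, and its log2 fold change was -0.22 without OGD and 0.75 with OGD. The largest part of the rise of Glrx2 came from a transcript of 758 bases, Glrx2-205, whose level was 0.387 FPKM in the control and 3.81 FPKM in the PGC-1α library after OGD, whereas its most abundant transcript, Glrx2-210, was at 2.76 and 2.36 FPKM. With Glrx2-210 alone the log2 fold change was -0.16, and with sums weighted by transcript length it was 0.28, so that the call of Glrx2 depended on how its transcripts were combined.

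Without OGD, the median log2 fold change with PGC-1α was 0.11 for the 7 mitochondrial members and 0.07 for the 22 cytosolic members. With OGD these medians were 0.17 and -0.11, against -0.01 over all genes. Of the mitochondrial members, 5 of 7 were above 0 in each comparison, and of the cytosolic members 14 of 22 without OGD and 4 of 22 with OGD. The share of all genes above 0 was 45.8% and 47.1%. In a reduced set, the members listed with a second location (Prdx5, Glrx2, Gpx1, Gsr and Msra) were left out. The list may not hold every such member. The mitochondrial median was then 0.35 without OGD and 0.17 with OGD, over 5 genes, and the cytosolic median was 0.07 and -0.09, over 19. No test of the difference between compartments was possible with 1 library per group. The mitochondrial medians also depended on how transcripts were combined, and with the most abundant transcript of each gene they were 0.35 without OGD and 0.01 with OGD. With that choice Prdx5 was higher in PGC-1α vs Ctrl (0.72) and Txnrd2 was lower in both contrasts (-1.46 and -1.36), all past 1.5-fold.

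**Figure D2:**
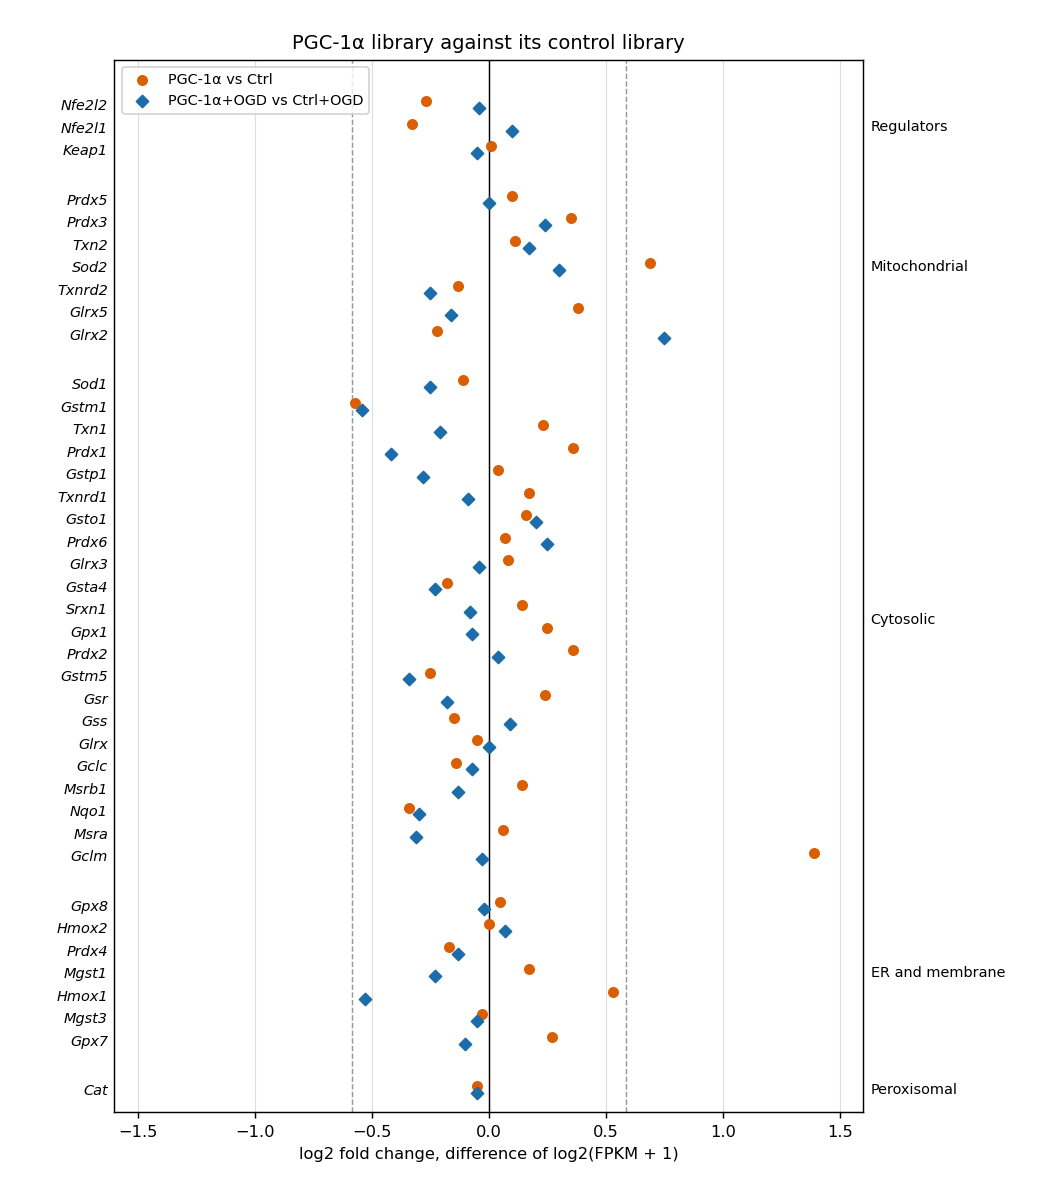
Each row is 1 gene; circles give the log2 fold change of PGC-1α vs Ctrl and diamonds that of PGC-1α+OGD vs Ctrl+OGD, with dashed lines at 1.5-fold. Gclm (1.39) and Sod2 (0.69) lie past the line without OGD and Glrx2 (0.75) with OGD, and in the cytosolic rows 18 of 22 diamonds lie below 0.

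Among the cytosolic members, Gclm (ENSMUSG00000028124, chr3:122245557-122270732, plus strand) had the largest difference. Gclm pairs with the catalytic subunit Gclc in the limiting step of glutathione synthesis. It was at 3.15 FPKM in Ctrl and 9.88 in PGC-1α, and after OGD it was at 6.76 and 6.59 FPKM in the same cells, lowest in Ctrl and highest in PGC-1α. The log2 fold change was 1.39 without OGD and -0.03 with OGD. Gclc was at 11.3, 10.1, 13.4 and 12.8 FPKM, and its log2 fold changes with PGC-1α were -0.14 and -0.07. Gss, which completes glutathione, had -0.15 and 0.09, and Gsr, which reduces oxidized glutathione, had 0.24 and -0.18. In the same pathway only Gclm was therefore past 1.5-fold.

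Gpx1, the main cytosolic glutathione peroxidase, also found in mitochondria, was at 32.5 FPKM in Ctrl and 38.8 in PGC-1α, and after OGD it was at 54.6 and 51.9 FPKM in the same cells. Its level separated the OGD libraries from the others and not the PGC-1α libraries from their controls, with log2 fold changes of 0.25 and -0.07 with PGC-1α. Gstm1 was at 442, 297, 387 and 266 FPKM in the same order of libraries. Both PGC-1α libraries were below both control libraries, with log2 fold changes of -0.57 and -0.54, just short of the 1.5-fold limit of 0.58. Gstm1 passed that limit without OGD with upper quartile scaling (-0.59) and after removal of the length and GC trend (-0.61), and with OGD for its most abundant transcript (-0.61). Gstm5, of the same gene family, had -0.25 and -0.34. Of the 1467 stretches of 75 bases in the deposited Gstm1 transcripts, 12.3% also occur in transcripts of other genes, among them Gstm2-ps1 and Gstm3, and for Gstp1 this share was 57.7%, mostly with Gstp2. The study's paired reads were longer than these stretches, so the shares do not give the part of the reads that fits several genes. How the authors' counting divided such reads is not stated, and its part in the values of these genes was not tested.

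The 7 members of the glutathione S-transferase families, which conjugate glutathione to reactive compounds, had a median log2 fold change of -0.03 without OGD and -0.23 with OGD. In the latter comparison 6 of 7 were below 0, with Gsto1 (0.20) as the exception. The 6 peroxiredoxins had medians of 0.22 and 0.02. Prdx1 (0.36 and -0.42) had values of opposite sign, and Prdx6 (0.07 and 0.25), Prdx2 (0.36 and 0.04) and Prdx4 (-0.17 and -0.13) were below 1.5-fold in both. Heme oxygenase 1 (Hmox1, ENSMUSG00000005413, chr8:75093621-75100589, plus strand) breaks down heme and is a well known stress gene. It was at 15.9 FPKM in Ctrl and 23.4 in PGC-1α, and after OGD it was at 18.6 and 12.6 FPKM in the same cells, which made PGC-1α its highest and PGC-1α+OGD its lowest library. The log2 fold change with PGC-1α was 0.53 without OGD and -0.53 with OGD, on either side of 0 and below 1.5-fold in size. Its constitutive relative Hmox2 had -0.00 and 0.07.

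The 3 regulators were below 1.5-fold in each comparison of sums. Nfe2l2 was at 58.6 FPKM in Ctrl and 48.4 in PGC-1α, and after OGD it was at 46.2 and 44.8 FPKM in the same cells. Nfe2l1, a related factor that governs proteasome genes, was at 38.1, 30.0, 28.4 and 30.6 FPKM. Both genes were highest in Ctrl. With its most abundant transcript alone, Nfe2l1 had log2 fold changes of -0.62 in PGC-1α vs Ctrl and -0.70 in Ctrl+OGD vs Ctrl, both past 1.5-fold, where the sums gave -0.33 and -0.41. Keap1 was at 23.8, 23.9, 23.7 and 22.8 FPKM, a range of 0.06 on the log2 scale. Its most abundant transcript, Keap1-202, was at 7.75, 16.0, 8.35 and 16.0 FPKM, and with it alone Keap1 was past 1.5-fold in both PGC-1α contrasts (0.96 and 0.86). NRF2 activity is set largely at the level of the protein, which mRNA values do not show.

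In Ctrl+OGD vs Ctrl, 6 of the 40 members were at least 1.5-fold higher and 0 were lower. This is 15.0% of the members, against 13.9% of all genes in either direction, and 15.0% against 6.20% for higher genes alone (7.71% of all genes were lower). The 6 genes were Gclm, Glrx5, Gpx1, Txn1, Prdx1 and Gpx7. The median of the members was 0.16, against -0.02 over all genes. The counts of 6 higher and 0 lower changed in some alternative settings. The most abundant transcript and sums weighted by length each gave 4 higher and 1 lower. Upper quartile scaling and removal of the length and GC trend each gave 5 and 1. A pseudocount of 0.1 gave 6 and 1, and the other scaling gave 6 and 0. The share of 6.20% refers to the main setting only. In either direction, 5 of 40 members passed 1.5-fold with the most abundant transcript and with length weighting, against 20% and 13.9% of all genes. With a pseudocount of 0.1, 7 passed, against 18.6%. With upper quartile scaling, trend removal and the other scaling, 6 passed, against 14.1%, 12.9% and 13.6%. The share of members was thus below that of all genes where 5 or 7 passed, and above it where 6 passed. In PGC-1α+OGD vs PGC-1α, 1 member (Glrx2, 0.73) was higher and 1 (Hmox1, -0.84) was lower, which is 5.00% of the members, against 9.03% of all genes (3.82% higher and 5.21% lower). The median of the members was then 0.09. Whether the response to OGD differed between control and PGC-1α cells could not be tested. All 40 members had a mean of at least 5 FPKM, and among genes at that level the share past 1.5-fold was 8.90% in PGC-1α vs Ctrl and 5.27% in the same contrast with OGD. For the OGD contrasts it was 12.3% in control cells and 6.94% in PGC-1α cells.

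Txn1 (ENSMUSG00000028367, chr4:57943373-57956411, minus strand), the cytosolic thioredoxin, was at 123 FPKM in Ctrl and 145 in PGC-1α, and after OGD it was at 200 and 172 FPKM in the same cells. Both OGD libraries were above both libraries without OGD, with log2 fold changes of 0.69 in control cells and 0.25 in PGC-1α cells. Gpx1 (ENSMUSG00000063856, chr9:108338903-108340343, plus strand) showed the same order of libraries, with 0.73 and 0.41, and 0.54 in control cells with its most abundant transcript. Gpx7 (ENSMUSG00000028597, chr4:108400390-108406961, minus strand), a peroxidase of the ER, was at 9.79, 12.01, 15.26 and 14.14 FPKM. Its log2 fold changes were 0.59 and 0.22, and the former was at the limit and was 0.49 after removal of a trend in length and GC content, 0.53 with its most abundant transcript and 0.56 with upper quartile scaling. For Glrx5 the changes were 0.84 and 0.30, so that these 4 genes had values above 0 in both OGD contrasts.

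Prdx1 (ENSMUSG00000028691, chr4:116685544-116700822, plus strand), the most abundant peroxiredoxin here, was at 106 FPKM in Ctrl and 137 in PGC-1α, and after OGD it was at 170 and 127 FPKM in the same cells. Ctrl+OGD was the highest and Ctrl the lowest library, and the log2 fold change with OGD was 0.67 in control cells and -0.11 in PGC-1α cells. Part of this came from Prdx1-205, a transcript of 611 bases listed at 0, 10.8, 37.5 and 0 FPKM. The most abundant transcript, Prdx1-204, was at 103, 123, 127 and 123 FPKM, and with it alone the log2 fold change with OGD was 0.30 in control cells, and with sums weighted by length it was 0.42. Gclm had log2 fold changes with OGD of 0.90 in control cells and -0.52 in PGC-1α cells, and the latter was -0.83 with its most abundant transcript and -0.77 with sums weighted by length, both past 1.5-fold. Glrx, the cytosolic glutaredoxin, was at 23.0, 22.2, 15.0 and 15.0 FPKM, with changes of -0.58 and -0.54. The former, just short of the limit in sums, passed it in control cells with a pseudocount of 0.1 (-0.61), upper quartile scaling (-0.62), removal of the length and GC trend (-0.65) and sums weighted by length (-0.61).

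The 9 members taken here as NRF2 targets are Nqo1, Hmox1, Gclc, Gclm, Txnrd1, Srxn1, Gsr, Prdx1 and Txn1. In Ctrl+OGD vs Ctrl, 9 of these 9 were above 0, from 0.22 (Hmox1) to 0.90 (Gclm), with a median of 0.40, and 3 were past 1.5-fold, against 48.0% of all genes above 0 and 6.20% higher by 1.5-fold. In PGC-1α+OGD vs Ctrl+OGD, 0 of 9 were above 0, against 47.1% of all genes, and the values ran from -0.53 (Hmox1) to -0.03 (Gclm), with a median of -0.18. The list of 9 was chosen with earlier results of these data known, and the counts hold for this choice of genes only. The 7 glutathione S-transferases are not in the list. In Ctrl+OGD vs Ctrl, 4 of them were above 0 and 3 below, with Gstm1 at -0.19 and Gstm5 at -0.35. Of the 56 further pathway genes compared below, 26 were above 0 and 30 below in Ctrl+OGD vs Ctrl. For PGC-1α+OGD vs Ctrl+OGD these numbers were 20 and 36. Both comparisons use the Ctrl+OGD library, which was the highest of the 4 libraries for 7 of the 9 genes, against 26.1% of all genes compared. In the comparisons that do not use that library, the median was 0.23 in PGC-1α vs Ctrl, with 7 of 9 above 0, and 0.13 in PGC-1α+OGD vs PGC-1α, with 6 of 9 above 0. The 9 of 9 and the 0 of 9 were the same with another pseudocount, with either scaling, with the most abundant transcript, after removal of the length and GC trend, and with sums weighted by length. Some of these outcomes were fixed in advance. A pseudocount cannot change the sign of a difference. Nqo1, Hmox1, Gclc, Srxn1, Gsr and Txn1 have 1 deposited transcript each, so the choice or weighting of transcripts cannot change their values. All alternatives recompute the same 4 libraries, so they cannot show whether other libraries would give these counts.

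Nqo1, a quinone reductase and the gene most often read as a sign of NRF2 activity, was at 7.96 FPKM in Ctrl and 6.10 in PGC-1α, and after OGD it was at 9.77 and 7.75 FPKM in the same cells. Its log2 fold changes were -0.34 and -0.30 with PGC-1α and 0.27 and 0.30 with OGD. Srxn1, which repairs overoxidized peroxiredoxins, was at 49.5, 54.6, 65.5 and 62.1 FPKM. Txnrd1, the cytosolic thioredoxin reductase, was at 106, 120, 140 and 131 FPKM. Both had Ctrl as the lowest and Ctrl+OGD as the highest library, and none of their differences reached 1.5-fold.

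**Figure D3:**
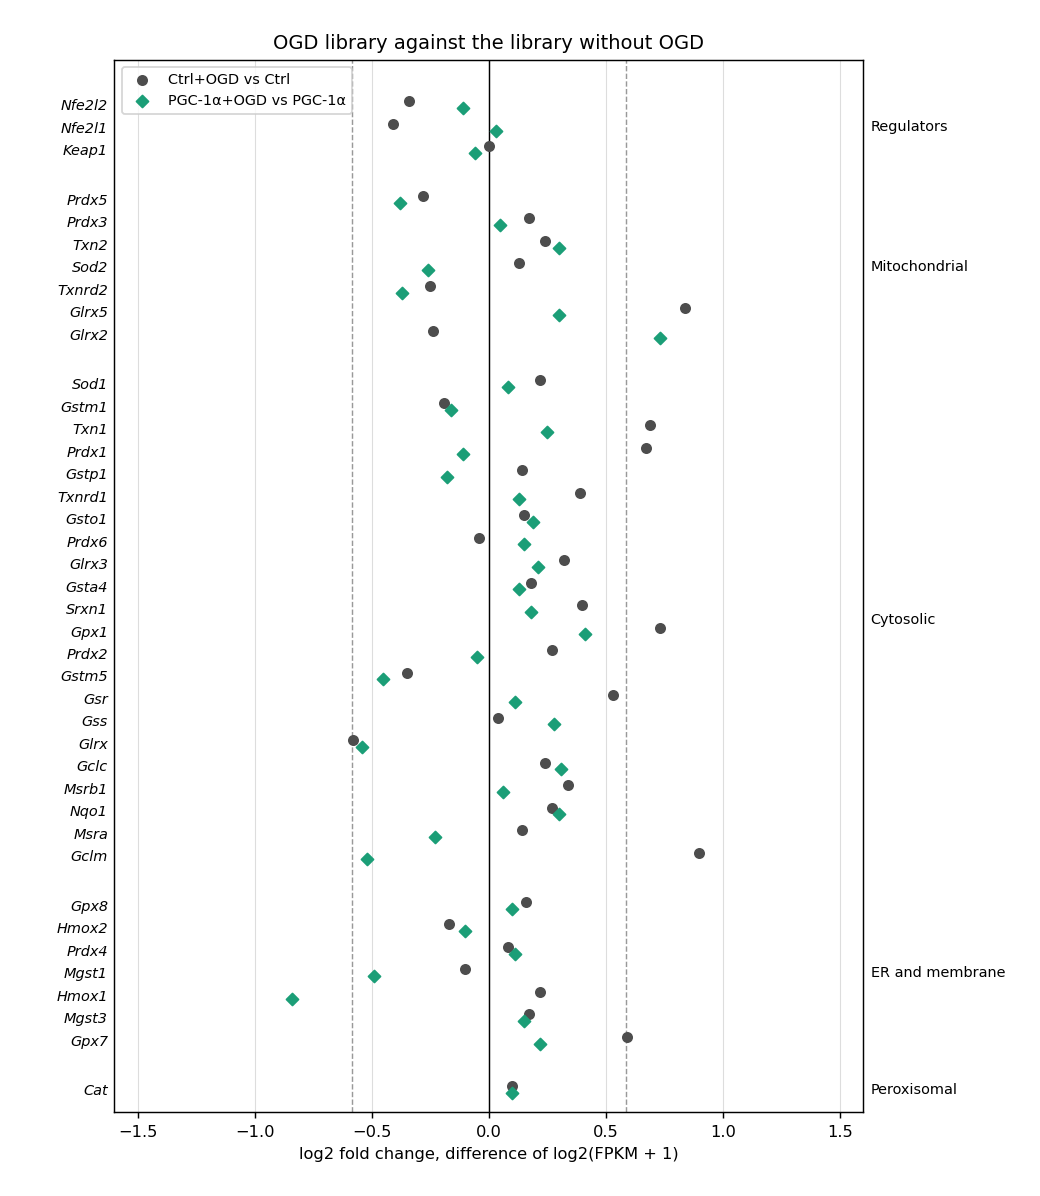
Each row is 1 gene; circles give the log2 fold change of Ctrl+OGD vs Ctrl and diamonds that of PGC-1α+OGD vs PGC-1α, with dashed lines at 1.5-fold. In control cells 6 circles lie past the upper line, led by Gclm (0.90) and Glrx5 (0.84), and Hmox1 (-0.84) has the lowest diamond.

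**Figure D4:**
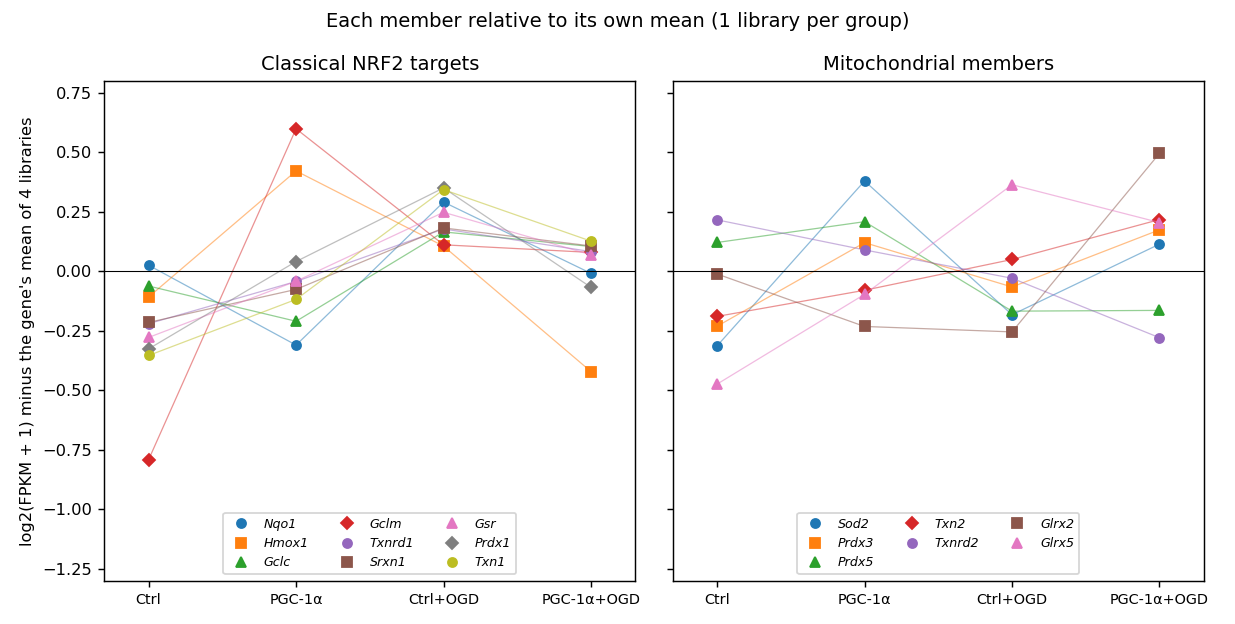
The vertical axis gives log2(FPKM + 1) minus the gene's own mean over the 4 libraries on the horizontal axis, for the 9 classical NRF2 targets (left) and the 7 mitochondrial members (right); thin lines only join the points of a gene. For 7 of the 9 targets the highest point is in Ctrl+OGD, while Gclm and Hmox1 peak in PGC-1α, and for the mitochondrial members no library is the highest for more than 3 genes.

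Across the members as a whole, Ctrl was the lowest library for 17 of 40 genes (42.5%, against 28.2% of all genes) and Ctrl+OGD the highest for 20 (against 26.1%). For the cytosolic members these numbers were 11 and 14 of 22. The mitochondrial members had Ctrl as the lowest library in 4 of 7 cases and Ctrl+OGD as the highest in 1. The comparisons of PGC-1α with control without and with OGD share no library. A value above 0 without OGD and below 0 with OGD was found for 17 of the 40 members (42.5%, against 22.5% of all genes), of which 11 were cytosolic and 1 was mitochondrial. Values above 0 in both were found for 7 members (17.5%, against 23.3% of all genes), among them 4 of the 7 mitochondrial ones, of which Prdx5 had 0.00 with OGD.

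Over the 4 comparisons, 9 of the 40 members were past 1.5-fold at least once, with 11 calls in all. In single comparisons the share of all genes past 1.5-fold ran from 6.91% to 13.9%. The share of all genes called at least once was not computed, so the 9 members cannot be set against genes in general. The other 31 members had a range over the libraries of 0.06 to 0.73 on the log2 scale, the widest being that of Gstm1. Catalase (Cat), which splits hydrogen peroxide in peroxisomes, was at 40.6, 39.2, 43.6 and 42.0 FPKM, with values of -0.05 for both PGC-1α contrasts and 0.10 for both OGD contrasts. The ER peroxidase Gpx8 lay between 60.6 and 67.9 FPKM, and the membrane transferase Mgst3 between 13.2 and 15.2 FPKM. The membrane transferase Mgst1 was at 29.8, 33.6, 27.9 and 23.5 FPKM, with -0.49 for OGD in PGC-1α cells. Gsta4, a transferase for lipid aldehydes, lay between 54.0 and 69.6 FPKM, Gstp1 between 113 and 137 FPKM, and Msra, a methionine sulfoxide reductase, between 6.23 and 7.98 FPKM. Glrx3, a cytosolic glutaredoxin that handles iron-sulfur clusters, had 0.32 for OGD in control cells, and Msrb1, another methionine sulfoxide reductase, had 0.34. For Glrx3, 14.9% of its stretches of 75 bases also occur in transcripts of the pseudogene Gm12669.

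For 23 of the 40 members the table held 2 or more transcripts, up to 8 for Nfe2l1, and in several the transcripts differed more than the sum. Gss-203 was at 10.0 FPKM in Ctrl and 9.08 in Ctrl+OGD and was listed at 0 in both PGC-1α libraries. Gss-201 was at 5.29 and 9.40 FPKM in these control libraries and at 15.3 and 20.3 in PGC-1α and PGC-1α+OGD, so that the sum stayed between 17.4 and 21.4 FPKM. With Gss-201 alone, its most abundant transcript, Gss had 1.37 and 1.03 in the PGC-1α contrasts and 0.73 for OGD in control cells, all past 1.5-fold. Txnrd2-203 was likewise higher in the control libraries (11.6 and 7.76 FPKM) than in PGC-1α (3.57) and PGC-1α+OGD (2.41). For Keap1, Keap1-206 held 59.5% of the sum in Ctrl and 1.26% in Ctrl+OGD, where Keap1-201 held 52.7%. In Prdx5, Prdx5-203 fell from 49.7 FPKM in Ctrl to 16.5 in PGC-1α and 9.61 in Ctrl+OGD, past 1.5-fold in each case. Reads that fit several transcripts of a gene are divided by an estimator, and the part of this step in these values was not tested.

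**Figure D5:**
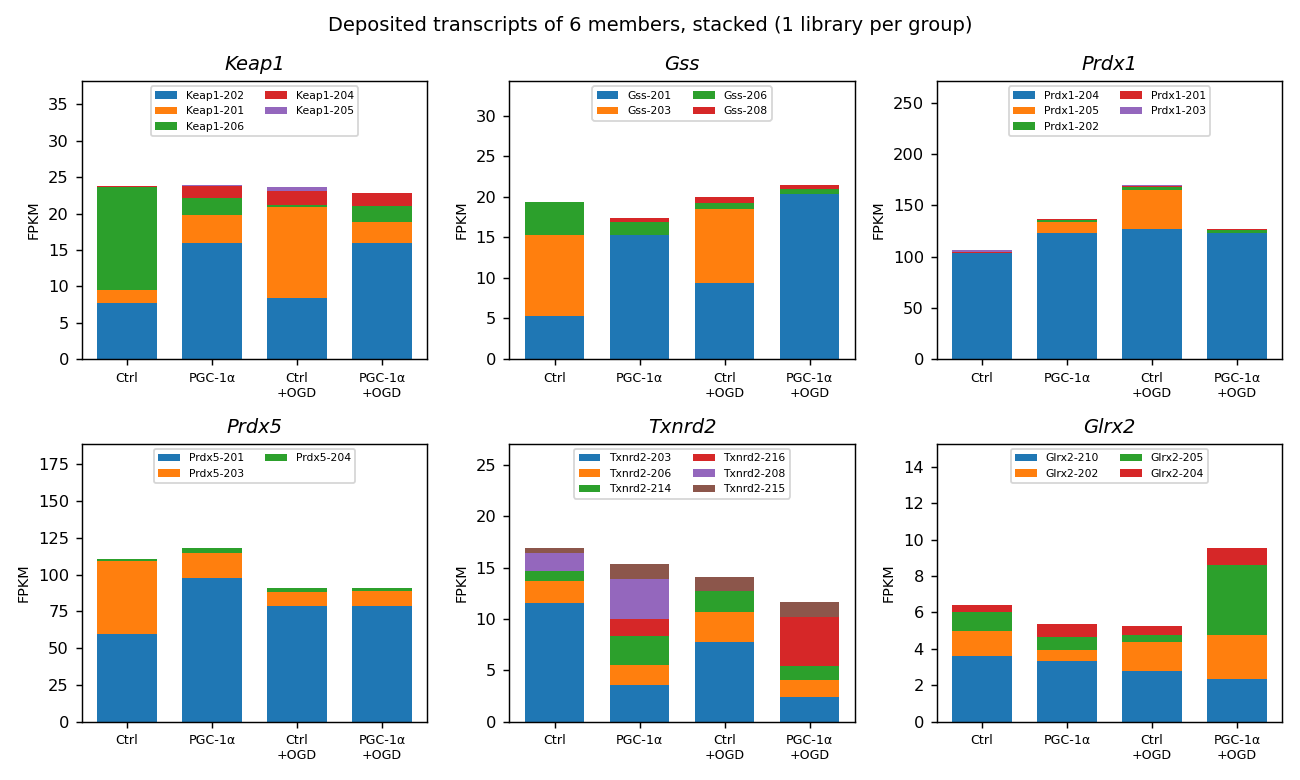
Stacked bars give the deposited transcripts of 6 members in FPKM (vertical axis, from 0) in the 4 libraries. The bars of Keap1 and Gss keep their height while their parts change, and the tall bar of Glrx2 in PGC-1α+OGD contains 3.81 FPKM of Glrx2-205.

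Of 60 further genes of the pathway, 57 had values and 56 were compared. In PGC-1α vs Ctrl, 2 were higher and 4 lower (all genes 4.92% and 5.63%), with a median of 0.01. The higher genes were Ftl1, the ferritin light chain (214 FPKM to 401 FPKM, log2 fold change 0.90), and Aifm2, a reductase of coenzyme Q (5.49 to 9.21, 0.66). The largest falls were those of Osgin1 (9.74 FPKM to 4.02 FPKM, -1.10), the transporter gene Abcc4 (12.4 to 6.40, -0.86) and the stress gene Sesn2 (23.8 to 14.5, -0.68). In PGC-1α+OGD vs Ctrl+OGD, 1 was higher, Osgin1 (1.28 FPKM to 3.31 FPKM, 0.92), 0 were lower (all genes 3.09% and 3.82%), and the median was -0.09. In Ctrl+OGD vs Ctrl, 5 were higher and 5 lower (all genes 6.20% and 7.71%), with a median of -0.06. In PGC-1α+OGD vs PGC-1α, 1 was higher and 2 lower (all genes 3.82% and 5.21%), with a median of -0.03. The 5 higher genes in control cells, named after their values were seen, were Ftl1 (1.05), Pgd (0.89), Akr1b3 (0.69), Me1 (0.61) and G6pdx (0.60). The 5 lower genes, named in the same way, were Osgin1 (-2.24), Gstm7 (-0.78), Txnip (-0.72), Gstt1 (-0.68) and Sesn3 (-0.62), and Osgin1 had the largest change of the 56.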

How the data were processed

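The authors sequenced poly(A) RNA from both ends after stranded library preparation and aligned the reads to GRCm38 with Hisat2 (version 2.1.0 in the submitters' processing notes). They deposited 1 table of values for 25889 transcripts. FPKM is the unit assumed for these deposited values, which are never negative and differ in their totals; the unit, the estimating program and its annotation are not given in the sources used here. Whole reads could not be recovered: at most 30.2% of 400 low values per library lay within 0.1 of whole steps. Identifiers without version matched GENCODE M21 for 25811 transcripts (99.7%), and transcripts were summed per symbol.

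Fold changes are differences of log2(FPKM + 1), without further scaling. Every member is given with values, and values in all 4 libraries are given for the regulators, Sod2, Prdx3, Txn2, Gpx1, the mitochondrial members and every member past 1.5-fold. Of the further pathway genes, the 3 largest rises and falls past 1.5-fold with PGC-1α are named. The members and lists were chosen with earlier results of these data known. Alternatives were a pseudocount of 0.1, 2 scalings, other limits on level and fold, the transcript of the highest mean, removal of a length and GC trend, and a reduced set of locations. Sums weighted by length were added after seeing the data. The calculations (Python 3.11.15, numpy 2.4.6, pandas 2.3.3, matplotlib 3.10.9) were tested on simulated data. In these data 200 genes had set changes larger than those of the members. The test therefore checks the code and does not show how reliable differences near 1.5-fold are.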

Additional observations from a re-analysis of the deposited data

Results flagged for a closer look

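For 3 members, the values of the same contrast lay on opposite sides of 0 in its 2 settings by at least 0.32 on the log2 scale, a limit chosen after the values were seen. With 1 library per setting the differences were not tested. The effect of PGC-1α on Hmox1 was 0.53 without OGD and -0.53 with OGD, a difference of -1.06 on the log2 scale. The effect of PGC-1α on Prdx1 was 0.36 and -0.42, a difference of -0.78, but with its most abundant transcript it was 0.25 and -0.05 and with sums weighted by length 0.29 and -0.16, which do not reach that limit. The effect of OGD on Gclm was 0.90 in control cells and -0.52 in PGC-1α cells, a difference of -1.42. Among all genes compared, 3.60% met this limit for the effect of PGC-1α and 3.48% for the effect of OGD.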

How the results depend on the processing

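No paired analysis was possible because each group has 1 library, and for the same reason no library could be left out. Of the recomputed counts and medians, 155 stayed within 1.5 times the count or within 0.1 of the median and 21 did not. The 155 include results that could not change. All 40 members have a mean of at least 5 FPKM, so the other limits on level leave every count and median of the members as it was. Each count combines higher and lower genes, so this tolerance does not show a shift between directions. Such a shift occurred for the members in Ctrl+OGD vs Ctrl, as given above. With the transcript of the highest mean, 7 members (2 with sums) were past 1.5-fold in PGC-1α vs Ctrl and 4 (1 with sums) in PGC-1α+OGD vs Ctrl+OGD, against 17.1% and 13.1% of all genes. The mitochondrial medians were then 0.35, 0.01 and, in PGC-1α+OGD vs PGC-1α, -0.26. Of the 56 further pathway genes, 6 were past 1.5-fold in each comparison that contains PGC-1α+OGD. The shares of all genes were 13.1% against Ctrl+OGD and 16.2% against PGC-1α. Glrx2 was then reversed, at -0.16 against Ctrl+OGD and -0.36 against PGC-1α. At a fold of at least 2, 1 member (Gclm) remained in PGC-1α vs Ctrl and 0 in the other comparisons, against between 2.09% and 3.43% of all genes, and of the further genes 1, 0, 2 and 0. Further pathway genes in PGC-1α+OGD vs Ctrl+OGD numbered 2 with a pseudocount of 0.1 and 0 with a mean of at least 5. The shares of all genes at these settings were 9.36% and 5.27%. Without the members listed with a second location, the mitochondrial median in PGC-1α vs Ctrl was 0.35. With sums weighted by length it was 0.28, and in PGC-1α+OGD vs Ctrl+OGD 0 members and 2 further genes were past 1.5-fold, against 6.67% of all genes. The number of reads is unknown, so the precision of a single value cannot be given.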
